A study of Mus musculus with 141 samples.

Results

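The libraries described here are the 34 inguinal white adipose tissue (iWAT) libraries with the highest and the 34 with the lowest level of Lep, chosen by that level alone. They come from 67 libraries of females and 74 of males in the series. Lep encodes leptin, the hormone that adipocytes secrete in proportion to their fat store. The mice belong to the Hybrid Mouse Diversity Panel, a collection of inbred and recombinant inbred strains bred in house from purchased stock, of which 82 were sequenced, with 1 library a sex and strain. All mice, in every group compared here, were on chow until 8 weeks of age, then on a high-fat, high-sucrose diet for 8 weeks, and were fasted for 4 h before tissue was taken. After mouse numbers 443, 886 and 1269 were left out, the remaining 65 female and 73 male libraries were ranked by Lep within each sex, in TPM, a level corrected for transcript length and library total. The top 16 of the females and 18 of the males (1 in 4) formed the high leptin class and as many at the bottom the low leptin class, and 70 libraries fell in neither. Within a sex every library of a class came from another strain, so the spread in a class holds genetic as well as technical differences, and p-values measure the spread between these libraries only. The 68 libraries came from 52 strains, of which 16 gave a female and a male library.

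Leptin is made by adipocytes, and its mRNA is known to rise as fat cells enlarge. It circulates to the brain, where the leptin receptor activates JAK2 and STAT3 and food intake falls. In adipose tissue large fat cells are also known for a dense extracellular matrix, for macrophages that gather around them and, in obesity, for low expression of the enzymes of fatty acid synthesis.

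Lep itself chose the libraries, so its levels are a description with no test. In low leptin females Lep ranged from 8.01 TPM in BXD38/TyJ to 83.99 TPM in CXB13/HiAJ, with a median of 57.4. In high leptin females it ranged from 817 TPM in BXD21/TyJ to 2571 TPM in BXD24/TyJ-Cep290<rd16>/J, with a median of 1391. The nearest females outside the classes were AXB12/PgnJ at 86.1 TPM and BXD70/RwwJ at 761 TPM. Males lay higher at the low end. Low leptin males ranged from 12.4 TPM in SJL/J to 501 TPM in BXD55/RwwJ, with a median of 322. High leptin males ranged from 1457 TPM in BXH6/TyJ to 2696 TPM in BXA11/PgnJ, with a median of 1666. The nearest males outside the classes were AXB13/PgnJ at 506 TPM and SEA/GnJ at 1439 TPM. The medians of the classes thus differed 24.2-fold in females and 5.17-fold in males, so the classes of the sexes do not cover the same range of Lep. The plot of Lep by rank shows the long tail of low females.

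**Figure D1:**
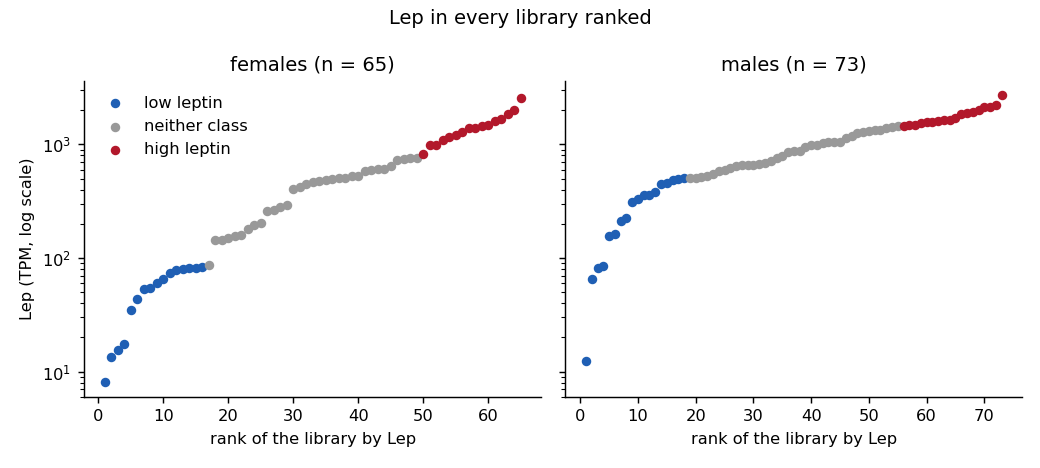
Lep in TPM (log scale) against the rank of the library, for 65 females and 73 males, with the high and low leptin classes in colour. Low leptin females lie at or under 83.99 TPM, while most low leptin males lie above that level.

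The mouse Lep promoter is shown because Lep defines the classes. The 250 bases before its start in RefSeq (GRCm38.p6, chr6:29059971-29060220, plus strand, 5′ to 3′) hold TTGCGCAA, a palindrome that C/EBP factors of adipocytes are known to bind, written in capitals.

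Lep: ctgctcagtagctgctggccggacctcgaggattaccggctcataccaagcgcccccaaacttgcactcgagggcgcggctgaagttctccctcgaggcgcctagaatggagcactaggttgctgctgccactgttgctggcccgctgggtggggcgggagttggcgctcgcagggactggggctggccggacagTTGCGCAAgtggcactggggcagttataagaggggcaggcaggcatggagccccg

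These letters were found in 54 of 32851 promoters of that length (0.164%). Counted by gene, with a match in any promoter of the gene, they were in 34 of 12485 genes tested between the classes (0.272%). Of genes higher with high leptin 9 of 3823 had a match (0.235%), and of lower genes 14 of 4374 (0.32%). A share of genes is not on the same scale as the share of promoters. A match is only a run of letters.

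Estimated counts per compared library ranged from 20568201 to 39353101. Adipocyte markers were high in both classes, and their summed level in CPM, the counts scaled to a common library total, was 44337 to 76852 in high leptin females, 11228 to 56517 in low leptin females, 48804 to 84624 in high leptin males and 31224 to 96900 in low leptin males. Lymphocyte markers moved strongly with the class. Their 16 genes include Trac, a T cell receptor chain gene, and the B cell gene Ms4a1. They summed to 21.9 to 2576 CPM in low leptin females (median 878) and 15.9 to 1985 CPM in low leptin males (median 999). The medians were 26.1 and 25.9 CPM in high leptin females and males. More than 100 CPM was present in 26 of the 34 low leptin libraries, 13 of each sex, and in 5 of the 34 high leptin libraries. Because of this the counts below are also given over the 29 high (14 female, 15 male) and 8 low (3 female, 5 male) leptin libraries at or under 100 CPM, a limit chosen after seeing the data. In bulk tissue, fewer cells of a type and less RNA per cell cannot be told apart. The part of lymphocytes in the results was not tested beyond these values. The share of counts from mitochondrially encoded genes also differed, with medians of 7.76% in high and 11.7% in low leptin females and of 7.82% and 11.4% in males.

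**Figure D2:**
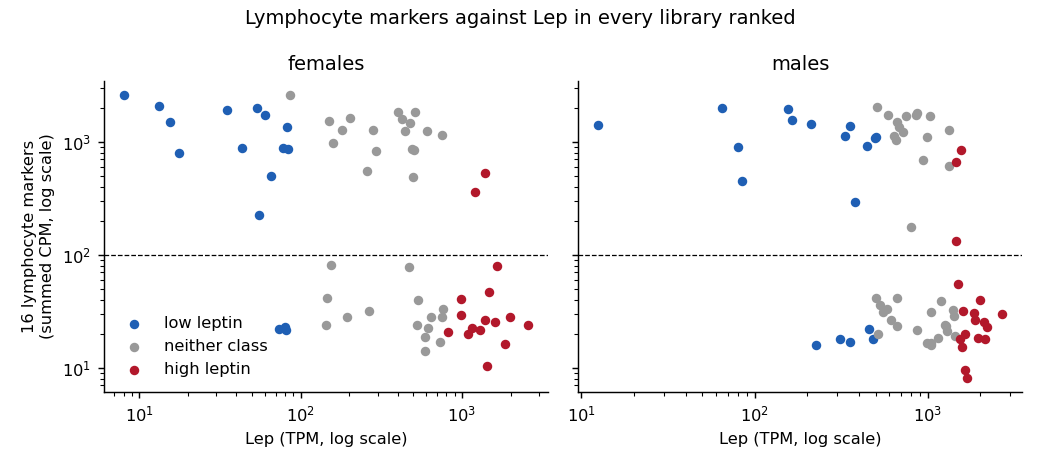
Summed CPM of 16 lymphocyte markers against Lep in TPM (both log scales) in each library, by sex, with the limit of 100 CPM dashed. Of the low leptin libraries 13 females and 13 males lie above the limit, and of the high leptin libraries 2 females and 3 males.

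High and low leptin libraries were compared over all genes with edgeR's quasi-likelihood test with sex as a covariate, to ask which genes vary with leptin. Of 17538 genes tested, 5081 were higher with high leptin (29%) and 6159 were lower (35.1%) at an adjusted p under 0.05. This background is high, so a count of genes from a list has to be read against it. The median log2FC of all genes was -0.05. On log2(TPM + 1) with limma the split was 7335 higher and 2708 lower and the median of all genes shifted to 0.10. That fit changed the unit, the scaling and the test together. With the mitochondrial share as a further term 5130 of the 17538 genes were higher and 5620 lower, and with a lymphocyte score 3153 and 3323. Over the libraries at or under 100 CPM of lymphocyte markers, 3060 genes were higher (16.8%) and 3181 lower (17.5%).

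Genes of the matrix and of fat cell enlargement were higher with high leptin almost throughout. All 11 genes of the fat mass expansion list, which are known to follow fat mass in mice, were higher, with a median log2FC of 1.16, and 10 of 11 were higher without the lymphocyte-rich libraries, with a median of 0.57. Of 27 extracellular matrix genes 26 were higher and none lower, with a median of 1.04, and 16 of 27 were higher without these libraries, with a median of 0.80. These lists were chosen with earlier results of these data known.

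Mest, an imprinted gene that marks expanding fat, had 181 to 2166 CPM in high leptin females (median 835) and 2.62 to 165 CPM in low leptin females (median 20.7). In males it had 258 to 2970 CPM with high leptin (median 998) and 18.5 to 1217 CPM with low leptin (median 224). The female classes did not overlap and the male classes did. Mest was higher by a log2FC of 3.07 (SE 0.41, adjusted p = 2.1e-09). Npr3, the clearance receptor for natriuretic peptides, ranged from 1224 to 2316 CPM in high and from 37.1 to 446 CPM in low leptin females, and from 1464 to 2727 CPM in high and from 183 to 2097 CPM in low leptin males, with a log2FC of 1.94 (SE 0.23, adjusted p = 5.5e-11). Again the classes were apart in females and overlapped in males. The caveolar genes Cav1, Cav2, Cavin1, Cavin2 and Ehd2, which shape the surface pits that are dense on large fat cells, were higher by 0.91 to 1.26. Vldlr, a receptor for triglyceride-rich lipoproteins, was higher by 1.14 (SE 0.12).

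Among matrix genes, Sparc, a collagen-binding protein, had 4081 to 7982 CPM in high leptin females (median 5489) and 613 to 2769 CPM in low leptin females (median 1249). In males it had 6151 to 9174 CPM with high leptin (median 7577) and 1482 to 8170 CPM with low leptin (median 2922). All high leptin females were above all low leptin females, and in males the classes overlapped. Sparc was higher by a log2FC of 1.52 (SE 0.14, adjusted p = 8.4e-15). Col4a2, a chain of basement membrane collagen, was one of 11 genes (0.0627% of those tested) whose classes did not overlap in either sex, with 998 to 2549 CPM against 220 to 817 CPM in females and 1306 to 3286 CPM against 445 to 1295 CPM in males. Its log2FC was 1.60 (SE 0.12, adjusted p = 2.9e-18), and its partner Col4a1 was higher by 1.41. The fibrillar collagen genes Col1a1 and Col3a1 were higher by 0.94 and 0.97, the collagen VI genes Col6a1, Col6a2 and Col6a3 by 1.23 to 1.40, and Lox, which cross-links collagen, by 1.55. Timp1, an inhibitor of matrix proteases, at 0.38, did not pass the test.

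**Figure D3:**
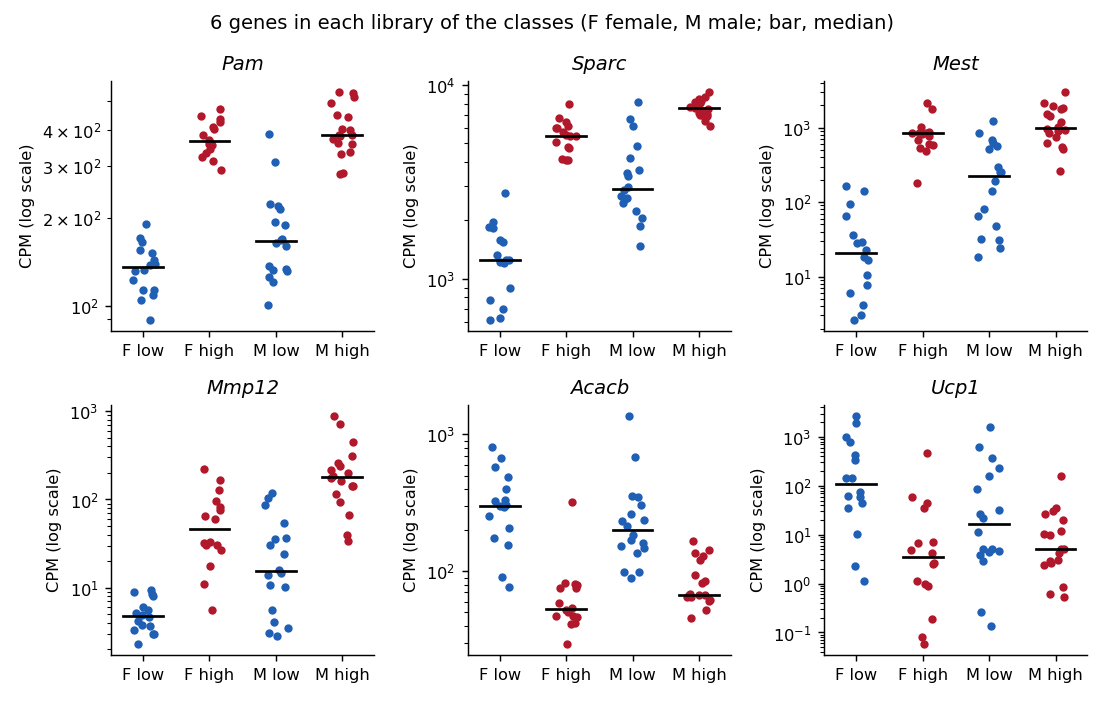
CPM (log scale) of 6 genes in each library of the 4 groups, with the median as a bar. The matrix and fat mass genes and Mmp12 are higher with high leptin, Acacb and Ucp1 lower, and the classes overlap least in females.

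In females 282 genes (1.61%) were higher and 22 (0.125%) lower with no overlap of the classes, and in males 19 (0.108%) were higher and none (0%) lower. The other 10 genes whose classes did not overlap in either sex were Gorasp2, Btbd10, Fam198b, Dse, Ppp3r1, Mrc2, Ret, Map2k4, Zfand2a and Ensa, all higher with high leptin. The absence of overlap was looked for after the values were seen, and so Mrc2, Ret, Map2k4, Zfand2a and Ensa were chosen after their values were seen. Mrc2, an endocytic collagen receptor, had 72.1 to 263 CPM in high and 6.45 to 44.9 CPM in low leptin females, and 119 to 403 CPM in high and 11.5 to 111.5 CPM in low leptin males. It was higher by a log2FC of 2.52 (SE 0.18). Ret, a receptor tyrosine kinase of the GDNF family, had 34.2 to 127.5 CPM against 2.61 to 11.7 CPM in females and 52.6 to 126.98 CPM against 7.56 to 49.99 CPM in males, with a log2FC of 2.51 (SE 0.19). No gene (0%) was lower without overlap in both sexes.

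Gorasp2, a Golgi stacking protein, had the smallest p of all, with 94.5 to 136.2 CPM in high against 57.9 to 80.8 CPM in low leptin females and 111.5 to 154 CPM against 64.6 to 105.99 CPM in males, a log2FC of 0.64 (SE 0.04, adjusted p = 1.3e-19). Among the others of the 12 higher genes with the smallest p, Sec24d, a coat protein of vesicles leaving the endoplasmic reticulum, was higher by 1.13, Creb3, a transcription factor held in that membrane, by 0.67, and Pam, which amidates secreted peptides, by 1.28 (SE 0.09, adjusted p = 4.5e-19). Adap2, which binds phosphoinositides, was higher by 1.62, and Kif3b, a motor protein, by 0.57. Among the lower genes with the smallest p were Tfap4, a transcription factor, at -0.94, Eif4a2, an RNA helicase of translation, at -0.50, Hnrnph3, a splicing factor, at -0.57, Polg2, the accessory subunit of the mitochondrial DNA polymerase, at -0.69, and Fn3k, a kinase that removes sugar from glycated proteins, at -1.72.

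The largest positive differences came from genes near 0 CPM in the low classes. Tph2, a tryptophan hydroxylase of serotonin synthesis, had 0.269 to 158 CPM in high leptin females (median 30.2) and 0 to 0.449 CPM in low leptin females (median 0.138). In males it had 31.5 to 250 CPM with high leptin (median 91.2) and 0.263 to 30.7 CPM with low leptin (median 2.05). The male classes were apart and the female classes overlapped, and Tph2 was higher by a log2FC of 5.45 (SE 0.52). Itgad, an integrin of macrophages, was higher by 5.15 (SE 0.42), with medians of 10.7 against 0.351 CPM in females and 58.4 against 0.909 CPM in males. Lipf, a gastric lipase gene, was higher by 4.33, and Gpr50, an orphan receptor related to the melatonin receptors, by 5.88 with a highest low leptin value of 0.304 CPM. The most negative differences belonged to milk and antibody genes. Csn2, the gene of beta-casein, was lower by 11.53 (SE 1.35), yet its medians were 3.6 CPM in low and 0.0321 CPM in high leptin females and 1 low leptin library reached 6780 CPM. The immunoglobulin gene Ighg1 was lower by 6.22, and Il22ra2, a soluble receptor for interleukin 22, by 4.82. Over the libraries at or under 100 CPM of lymphocyte markers Csn2 was at -2.36 (adjusted p = 0.016), while Ighg1 at -1.004 and Il22ra2 at 0.37 did not pass the test (adjusted p = 0.35 and 0.58).

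Genes of new fatty acid synthesis went the other way from the matrix genes. Of 21 genes of de novo lipogenesis 12 were lower and 5 higher with high leptin, with a median log2FC of -0.46, and without the lymphocyte-rich libraries 15 were lower and none higher, with a median of -0.78. On log2(TPM + 1), 9 were lower and 6 higher, and with the mitochondrial share as a further term 7 were lower and 6 higher (median -0.10). That last split is close to the shares of all genes lower and higher in the same fit. Acacb, the acetyl-CoA carboxylase of the mitochondrial surface, had 29.7 to 323 CPM in high leptin females (median 52.7) and 76.2 to 802 CPM in low leptin females (median 302). In males it had 45.9 to 165 CPM with high leptin (median 67.6) and 88.97 to 1359 CPM with low leptin (median 199). The ranges overlapped in both sexes, and Acacb was lower by a log2FC of 1.96 (-1.96, SE 0.22, adjusted p = 1.6e-11). Acaca, the cytosolic carboxylase, was lower at -1.61, Acly, which makes its substrate, at -1.52, Fasn, the fatty acid synthase, at -1.23, Elovl6, an elongase, at -1.80, and Thrsp, a lipogenic regulator, at -1.65. The 5 higher genes were Scd2, a desaturase, G6pdx and Pgd of the pentose phosphate pathway, Insig1, which restrains sterol regulatory proteins, and Elovl5, with 0.13 to 0.69.

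Thermogenic genes were lower in the high leptin class, with 11 of 17 lower, 1 higher and a median of -1.54, and with 10 lower and none higher over the libraries at or under 100 CPM (median -1.06). With a lymphocyte score as a further term 13 were lower and none higher (median -1.62). With the mitochondrial share as a further term, however, 2 were lower and 6 higher (median -0.28). Ucp1, the uncoupling protein of brown and beige fat, spread widely, from 0.0594 to 470 CPM in high leptin females (median 3.46), 1.13 to 2666 CPM in low leptin females (median 107.3), 0.529 to 156 CPM in high leptin males (median 5.17) and 0.136 to 1614 CPM in low leptin males (median 16.3). The classes overlapped over most of their ranges. Its log2FC was -3.42 (SE 0.73, adjusted p = 3.9e-05), and it was -1.54 and did not pass the test without the lymphocyte-rich libraries (adjusted p = 0.21), -4.53 with a lymphocyte score (adjusted p = 0.0051) and -0.55 with the mitochondrial share (adjusted p = 0.45). Cidea, a lipid droplet protein of brown fat, was lower at -2.29 and at -1.69 without these libraries (adjusted p = 0.0064), and at -0.59 with the mitochondrial share it did not pass the test (adjusted p = 0.0502). Elovl3, an elongase induced by cold, was at -3.27, and did not pass the test at -1.53 without these libraries (adjusted p = 0.087), at -0.58 with the mitochondrial share (adjusted p = 0.35) or at -1.33 in BXD strains alone (adjusted p = 0.14). Cox8b, a cytochrome oxidase subunit of brown fat and muscle, was at -1.70. Prdm16, a regulator of beige fat, was the 1 higher gene at 0.42 and did not pass the test at 0.14 without these libraries (adjusted p = 0.61), and the deiodinase Dio2 at 0.39 did not pass the test. Of the 13 proteins encoded in mitochondrial DNA, genes for 12 were lower, with a median of -0.61.

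Fatty acid oxidation genes gave 9 lower and 3 higher of 20, with a median of -0.25 that became 0.06 on log2(TPM + 1). Without the lymphocyte-rich libraries 15 were lower and 1 higher, while with the mitochondrial share as a further term none were lower and 15 higher (median 0.38). Acadvl and Hadha, which act on long chains, were at -0.97 and -0.66, and Cpt1a, the carnitine transferase of the outer membrane, was higher at 0.50. Branched-chain amino acid catabolism gave 4 lower of 19 with a median of -0.06, which became 0.18 with 11 higher on log2(TPM + 1), and 17 lower without the lymphocyte-rich libraries (median -0.44). With the mitochondrial share 1 was lower and 10 were higher (median 0.26). Of 11 genes of triglyceride synthesis 3 were higher, with Mogat2 at 1.83 and Dgat2 at 0.86, and 1 was lower, Pck1 of glycerol formation, at -0.79. The median of that list was -0.16 and became 0.12 on log2(TPM + 1). Without the lymphocyte-rich libraries 1 was higher and 6 lower (median -0.41), and Dgat2 at 0.34 did not pass the test (adjusted p = 0.096), whereas with the mitochondrial share 6 were higher and 1 lower (median 0.34). Among 15 lipolysis genes 9 were higher and 3 lower with a median of 0.30. In females alone 9 were higher and 2 lower (median 0.62), and in males 2 were higher and 3 lower (median -0.04). Over both sexes 1 was higher and 2 lower without the lymphocyte-rich libraries (median -0.22). Adrb3, the beta-3 adrenergic receptor of fat cells, was lower at -1.40 (SE 0.22, adjusted p = 9.2e-08) and at -2.29 without them. Hilpda, an inhibitor of fat cell lipase, was higher at 1.20.

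Adipocyte identity genes were higher in 10 of 12 cases, with a median of 0.39. The 12 were all higher in females (27.7% of genes were higher there), with a median of 0.78, and 5 of 12 in males (21.4%), with a median of 0.13. Over the libraries at or under 100 CPM of lymphocyte markers 1 was higher and 1 lower, with a median of -0.10. Adipoq, the gene of adiponectin, had 1447 to 2940 CPM in high and 407 to 2409 CPM in low leptin females and 1356 to 2636 CPM in high and 917 to 3154 CPM in low leptin males, so the classes overlapped in both sexes. Its log2FC was 0.33 (adjusted p = 0.023), with 0.75 in females and -0.07 in males, and -0.29 (adjusted p = 0.092) without the lymphocyte-rich libraries. With 1 library a strain it was 0.10 (adjusted p = 0.51). Of 17 other adipokines 10 were higher and 2 lower, with a median of 0.67, and 4 were higher and 3 lower without those libraries. Apln, the peptide apelin, was higher by 1.47, with 2.10 in BXD strains and 0.64 in other strains, where it did not pass the test (adjusted p = 0.063). The difference between the strain families was not tested. Cfd, the adipocyte protease adipsin, was lower at -1.32 and at -1.88 without the lymphocyte-rich libraries.

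The leptin receptor pathway had 8 of 14 genes lower and 2 higher, with a median of -0.23, which was 0.03 on log2(TPM + 1) and 0.02, with 4 higher and 3 lower, without the lymphocyte-rich libraries. Lepr, the receptor, had 4.26 to 18.4 CPM in high and 6.94 to 29.7 CPM in low leptin females and 1.63 to 9.66 CPM in high and 1.04 to 22.4 CPM in low leptin males. The ranges overlapped. Its log2FC was -0.99 (SE 0.19, adjusted p = 6.8e-06) and 0.04 without the lymphocyte-rich libraries. Socs3, the feedback inhibitor of the receptor, was at -0.72 and 0.00 in the same order, and Cish, another inhibitor of cytokine signalling, at -1.11 and -1.31. Ptpn11, a phosphatase that transmits the signal, was higher at 0.66 and 0.41. Glucocorticoid response genes were higher in 10 of 14 cases and lower in 2, with a median of 0.55, and 4 were higher and 1 lower without the lymphocyte-rich libraries. Tsc22d3, a leucine zipper protein induced by glucocorticoids, was higher by 1.13 (SE 0.14, adjusted p = 2.5e-10) and Fkbp5, a chaperone of the receptor, by 0.94. Pdk4, a kinase that restrains pyruvate oxidation, was lower at -1.12, and at 0.015 with the mitochondrial share as a further term it did not pass the test (adjusted p = 0.96).

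Macrophage genes were higher with high leptin, 9 of 12 with none lower and a median of 0.66, and the genes of lipid-associated macrophages, which take up lipid around dying fat cells, in 9 of 13 with 1 lower and a median of 1.16. Without the lymphocyte-rich libraries 8 of 12 and 10 of 13 were higher, with medians of 0.85 and 1.53. The summed level of the 13 lipid-associated genes was 589 to 1709 CPM in high and 512 to 1385 CPM in low leptin females, and 662 to 5251 CPM in high and 512 to 2539 CPM in low leptin males. Mmp12, the macrophage elastase, had 5.62 to 221 CPM in high leptin females (median 46.3) and 2.33 to 9.36 CPM in low leptin females (median 4.81). In males it had 33.4 to 881 CPM with high leptin (median 179) and 2.84 to 120 CPM with low leptin (median 15.3). The ranges overlapped in both sexes, and the log2FC was 3.27 (SE 0.34, adjusted p = 9.1e-13). Trem2, the lipid receptor that marks these cells, was higher by 2.47 (SE 0.29) and Gpnmb, a glycoprotein of lipid-laden macrophages, by 2.39 (SE 0.43), which was 1.30 and did not pass the test in BXD strains alone (adjusted p = 0.23). Adgre1, the gene of F4/80, was higher by 1.41. Spp1, osteopontin, was lower at -1.38, and at 0.36 without the lymphocyte-rich libraries it did not pass the test.

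Of 23 chemokine and inflammatory genes 13 were higher and 4 lower, with a median of 0.78, and 12 were higher and 1 lower of 25 without the lymphocyte-rich libraries. Ccl2, the monocyte attractant, was higher by 1.67 and Saa3, an acute phase protein of fat, by 2.30. Saa3 was at 0.76 with libraries ranked by CPM of Lep (adjusted p = 0.24), at 0.91 with larger classes (adjusted p = 0.071) and at 0.09 per doubling with Lep as a numeric term (adjusted p = 0.35), none of which passed the test. The 4 lower genes were Ccl5, Cxcl13, Il1b and Tnf, and 1 of them, the B cell attractant Cxcl13, was lower without these libraries. Blood endothelium genes were all higher, 12 of 12, with a median of 0.50, and 4 of 12 without these libraries. Of 12 mural genes 8 were higher and 2 lower, and 4 were higher and none lower without these libraries. All 16 lymphocyte genes were lower, with a median of -3.33, and over the libraries at or under 100 CPM 1 was higher and none lower. All 9 mammary epithelium genes were lower, with a median of -1.69, and 3 without the lymphocyte-rich libraries. In females alone 4 of 9 were lower, with a median of -0.67, where 4799 of all 16460 genes were lower. In males 4 of the 4 tested were lower, with a median of -3.14, where 4303 of all 16025 genes were. Their summed level had medians of 427 CPM in high and 675 CPM in low leptin females and of 1.4 and 7.37 CPM in males. Proliferation genes were lower in 2 of 15 cases with a median of -0.16, while without the lymphocyte-rich libraries all 15 were higher, with a median of 1.44. Mki67, a marker of dividing cells, was at -0.24 and 1.84 in the same order. In females alone 5 of the 15 proliferation genes were lower and none higher (median -0.72), where 4799 of all 16460 genes were lower. In males 2 were higher and none lower (median 0.30), where 21.4% of genes were higher. The plot of the gene lists shows the values with and without the lymphocyte-rich libraries.

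**Figure D4:**
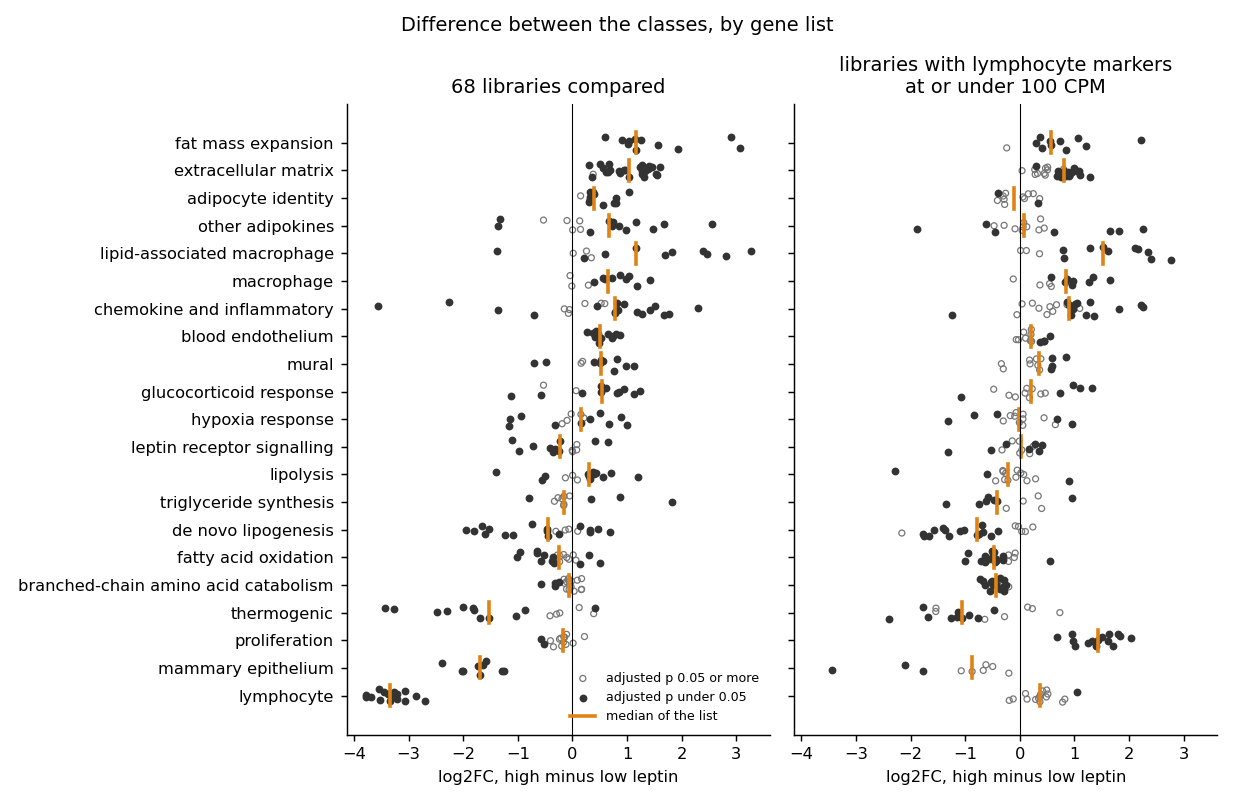
Difference between the classes (log2FC, high minus low leptin) of each gene in 21 lists, over the 68 libraries (left) and the 37 with lymphocyte markers at or under 100 CPM (right). Filled points passed an adjusted p of 0.05 and bars are list medians. Matrix and macrophage lists lie right of 0 and lipogenesis and thermogenic lists left in both, while lymphocyte and proliferation lists move between the panels.

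The profiles most like Lep were found by the mean over the sexes of the Spearman correlation with Lep within a sex, over 65 females and 73 males, which share library preparation and tissue make-up and are given with no p. Among the 10 closest were Snx7, a sorting nexin (0.925), Trp53inp2, a regulator of autophagy (0.923), Lpgat1, an acyltransferase of phospholipids (0.921), and Sparc (0.919), with Pam, Vldlr, Cav2, Dusp3, a phosphatase, and Degs1, a ceramide desaturase. Snx7 had 38.98 to 68.7 CPM in high and 9.73 to 24.9 CPM in low leptin females and 36.1 to 67.9 CPM in high and 15.7 to 42.7 CPM in low leptin males. The male classes overlapped. The profiles most opposed to Lep included Fn3k (-0.709), Acacb (-0.625), Gpd2, the mitochondrial glycerol phosphate dehydrogenase, and Sorcs2, a sorting receptor.

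Whether the difference between the classes differed between the sexes was tested as an interaction. It was more positive in females for 913 genes (5.21%) and more positive in males for 201 genes (1.15%). Of the 11 fat mass genes 10 were more positive in females, and of the 12 adipocyte identity genes 8. The classes of females are further apart in Lep than those of males, as given above. Without the lymphocyte-rich libraries 320 genes were more positive in females and 110 in males. With log2(Lep TPM + 1) as a numeric term by sex over all ranked libraries, an alternative chosen after seeing the data, 187 genes had a more positive slope in females and 175 in males. In that fit Steap4, a metalloreductase of fat cells, and Crtac1, a matrix protein, kept an adjusted p under 0.05, and Sfrp5, an inhibitor of Wnt signalling, Bmp3 and Rtn4rl1 did not (adjusted p = 0.084, 0.25 and 0.073). Steap4 at 1.05 did not pass the test without the lymphocyte-rich libraries (adjusted p = 0.051).

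It was then examined whether the leptin level of one sex of a strain goes with expression in the other sex. Over 58 strains with both sexes, Lep of the female and the male library correlated with Pearson's r = 0.499 (permutation p = 5e-05, adjusted over 6 tests 0.0003) and Spearman's rho = 0.487 (permutation p = 0.00015, adjusted 0.00045) on log2(TPM + 1). Without the 2 strains farthest from the female median r was 0.429 (permutation p = 0.00095). Within the 26 BXD strains, which descend from a cross of C57BL/6J and DBA/2J, r was 0.543 (permutation p = 0.0043). In 7 strains both sexes were in the high class, namely CE/J, 129X1/SvJ, BXA2/PgnJ, BXA8/PgnJ, BXD44/RwwJ, BXD60/RwwJ and BXD24/TyJ-Cep290<rd16>/J. In 7 both were in the low class, namely SJL/J, SWR/J, BALB/cJ, BXD38/TyJ, BXD55/RwwJ, BXD87/RwwJ and CXB13/HiAJ. In 2 strains one sex was high and the other low: CXB6/ByJ had 53.6 TPM in the female and 1637 TPM in the male, and AXB19b/PgnJ 1658 TPM in the female and 164 TPM in the male.

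**Figure D5:**
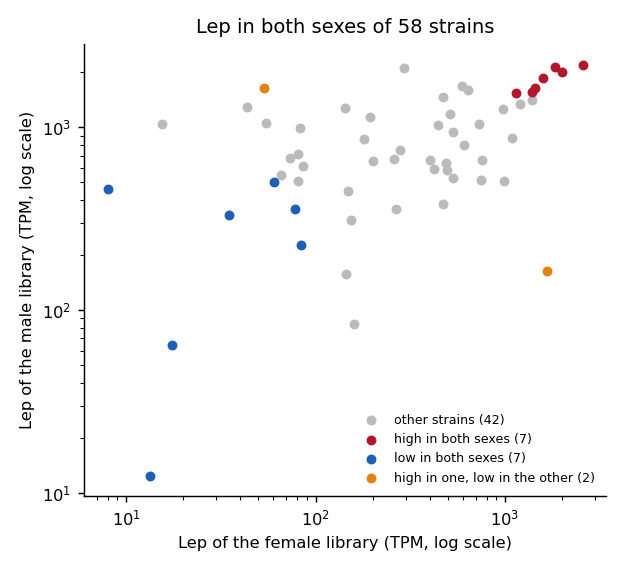
Lep of the male library against Lep of the female library (TPM, both log scales) in 58 strains. The 7 strains high in both sexes lie at the upper right, the 7 low in both at the lower left, and 2 strains are high in one sex and low in the other.

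A library grouped by the class of the opposite sex of its strain takes no part in choosing that class, so Lep could be tested in 55 such libraries of 39 strains. Female libraries of strains with high leptin males had 53.6 to 2571 TPM (median 1268, n = 12) and those of strains with low leptin males 8.01 to 1658 TPM (median 114.4, n = 14). Male libraries of strains with high leptin females had 164 to 2207 TPM (median 1545, n = 13) and those of strains with low leptin females 12.4 to 1637 TPM (median 528, n = 16). The ranges overlapped widely in both sexes. Lep was higher by a log2FC of 1.59 (SE 0.41, edgeR adjusted p = 0.010), and with strain as a random effect by 1.86 (limma-voom adjusted p = 0.11). Lymphocyte markers exceeded 100 CPM in 4 of 12 and 9 of 14 of these female and in 4 of 13 and 7 of 16 of these male libraries, in the same order, and Lep was higher by 1.01 without them (adjusted p = 0.028).

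In this grouping 1048 of 17653 genes were higher (5.94%) and 460 lower (2.61%). With strain as a random effect, which takes account of the strains that gave a library of each sex, 4 genes were higher and 2 lower, and in females alone 2 were higher and 4 lower. Acacb at -1.30, Cux2 at 1.19 and Timm21 at -0.31 passed the test in that fit (limma-voom adjusted p = 0.0091, 0.027 and 0.019). Counting the sexes of a strain as separate samples, of 27 extracellular matrix genes 13 were higher and none lower, of 13 genes of lipid-associated macrophages 7 were higher and none lower, of 20 genes of de novo lipogenesis 9 were lower and none higher, and of 17 thermogenic genes 10 were lower and none higher. With strain as a random effect 1 gene of de novo lipogenesis was lower and none of the matrix, lipid-associated macrophage, fat mass or thermogenic genes passed the test. With the sexes again counted as separate samples, as in the rest of this paragraph, 1 of the 11 fat mass genes was higher. No lymphocyte gene was higher or lower there, with a median of -0.74. Trem2 was higher by 1.94 (SE 0.36, adjusted p = 0.0012), Mmp12 by 2.10 and Col4a2 by 0.87. None of these genes passed the test with strain as a random effect. Acacb was at -1.62 (SE 0.25, adjusted p = 0.00027), Acaca at -1.19, Elovl6 at -1.62 and Ucp1 at -2.81 (SE 0.74, adjusted p = 0.013). The gene with the smallest p was Cux2, a homeobox factor, at 1.61 (SE 0.21, adjusted p = 5e-06). It was followed by Acacb, Timm21 of mitochondrial protein import at -0.34, Aldh3b1, an aldehyde dehydrogenase, at 0.74, and Aspg, an asparaginase, at -2.25.

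The 70 libraries of neither class, which the comparison of the classes did not use, gave a slope of expression on log2(Lep TPM + 1), in log2 units per doubling of Lep. Of 16781 genes 999 had a positive slope (5.95%) and 1281 a negative slope (7.63%). Fat mass genes had a positive slope in 8 of 11 cases and extracellular matrix genes in 12 of 27, with no negative slope in either list. De novo lipogenesis genes had a negative slope in 10 of 20 cases and a positive slope in none. Mest rose by 0.86 (SE 0.18, adjusted p = 0.00076), Sfrp5 by 0.98 (SE 0.17), Pam by 0.40 (SE 0.05, adjusted p = 1.6e-08) and Sparc by 0.37 (SE 0.07) per doubling, and Acaca had a slope of -0.73 (SE 0.16, adjusted p = 0.0016). Thermogenic genes gave 1 positive and 1 negative slope of 17, with Ucp1 at 0.12 (SE 0.45, adjusted p = 0.88). Of 12 macrophage genes 5 had a negative slope and none a positive slope, and of 23 chemokine and inflammatory genes 9 had a negative and 2 a positive slope. The female AXB12/PgnJ library had the lowest Lep of these 70 (86.1 TPM) and 5331 CPM of macrophage markers. The other libraries of neither class had at most 1415 CPM in females and 2114 CPM in males. At 2564 CPM of lymphocyte markers it is not among the 36 libraries described next. Slopes with only this library left out were not fitted, so its part in them was not tested. Over the 36 libraries at or under 100 CPM of lymphocyte markers none of the macrophage genes passed the test, and 4 of 22 chemokine and inflammatory genes had a positive slope and none a negative one. There 3.86% of all genes had a positive and 3.38% a negative slope, the fat mass genes had 5 and the matrix genes 4 positive slopes, and 16 of 20 genes of de novo lipogenesis a negative slope. Saa3 had a slope of -0.89 (adjusted p = 0.0023), which was 0.97 (adjusted p = 0.020) over those 36 libraries and 0.23 with limma-voom (adjusted p = 0.54).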

How the data were processed

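RNA-seq of iWAT was analysed in 67 female and 74 male libraries. The authors quantified transcripts with kallisto 0.46.1 (build mm10, per the labels' processing notes) and summed them to genes. The estimated counts deposited by the authors are not normalized, and 30.3% are not whole numbers. The TPM values deposited by the authors are scaled for transcript length and sum to 1000000 a library. Both list 36558 genes, of which 35935 were matched to a symbol. Totals ranged from 6269154 to 78562648 (median 30233245), where 3 counts are 0.0992 CPM. Reads of near-identical genes may be split between them.

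Libraries were grouped by Lep TPM within the sex given in the sample titles. Estimated counts were rounded, filtered with filterByExpr, scaled with TMM and tested with edgeR 4.0.16 in R 4.3.3 (quasi-likelihood, sex as a covariate, Benjamini-Hochberg over all genes tested, adjusted p under 0.05). CPM are TMM-scaled. Correlations of strains used 100000 permutations, two-sided (scipy 1.17.1, Python 3.11.15). The edgeR tests were run on simulated data, with 200 genes changed and libraries drawn without a strain effect. Of the calls 3.29% were false for the classes, 4.86% for the grouping by the other sex, 7.43% for the slope and 10.9% for the interaction. At a log2FC of 0.5 the class test recovered 64% of changed genes and the interaction test 26%. The members and lists were chosen with earlier results of these data known. Named genes are Lep, the 12 with the smallest p and the 6 with the largest difference in each direction (mean of at least 1 CPM), the members of 29 lists, the 10 profiles most and least like Lep, and the 5 smallest p of the interaction and of the grouping by the other sex. 5 list genes were not tested, and some named genes are not reported here. Alternatives used DESeq2 1.42.0, limma 3.58.1 and others named in the closing section.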

Additional observations from a re-analysis of the deposited data

Results flagged for a closer look

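For 5 genes a test of the difference between the sexes picked out the result. The difference between the leptin classes was larger in females than in males, with a difference of the log2FC (female minus male) of 4.06 for Sfrp5 (SE 0.55, edgeR adjusted p = 6.4e-06), 2.45 for Crtac1, 1.82 for Bmp3, 1.37 for Steap4 and 1.25 for Rtn4rl1. Sfrp5 had 56.2 to 403 CPM in high and 0.908 to 17.3 CPM in low leptin females, and 136.9 to 489 CPM in high and 3.46 to 297 CPM in low leptin males, so the classes were apart in females and overlapped in males. Its log2FC was 5.11 in females and 1.04 in males. Steap4 had a log2FC of 1.55 in females and 0.18 in males, and without the lymphocyte-rich libraries its difference was 1.05 (adjusted p = 0.051). The medians of Lep differed 24.2-fold between the classes in females and 5.17-fold in males.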

How the results depend on the processing

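The comparison of the classes gave 5081 higher and 6159 lower genes. Lower genes were 2708 with limma on log2(TPM + 1) and 2639 on log2(TPM + 0.1). With a lymphocyte score as a further term 3153 were higher and 3323 lower, and with lymphocyte-rich libraries left out, an alternative chosen after seeing the data, 3060 and 3181. No other alternative moved these counts by over 1.5 times, among them DESeq2, RLE, library totals, limma-voom, other class sizes, 1 library a strain, strain as a random effect, BXD strains only and other strains only. In the grouping by the other sex, higher genes were 1686 with library totals, and 2 were higher and 4 lower in females only, 0 and 0 in males only (2315 genes at an unadjusted p under 0.05 with edgeR), 685 and 305 with strain family as a term and 4 and 2 with strain as a random effect. Lower genes were 896 with lymphocyte-rich libraries left out, and higher genes 477 with a lymphocyte score. Slopes gave 1774 higher and 560 lower with library totals, 776 lower with strain family and 629 and 550 with lymphocyte-rich libraries left out. In the interaction the difference between the classes was more positive in females for 5.21% of genes and in males for 1.15%. The first share was 3.38% with library totals and 1.11% with Lep as a numeric term. The second was 0.673% with limma-voom and 1.76% with a lymphocyte score. With lymphocyte-rich libraries left out the shares were 1.76% and 0.604%.

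Signs turned for named genes as follows. With lymphocyte-rich libraries left out Adipoq was -0.29, Cd3e 0.49, Cr2 0.34, Il22ra2 0.37, Lepr 0.036 and Mki67 1.84. With a lymphocyte score Adipoq was -0.022, Cd3e 0.21 and Prdm16 -0.023. With an adipocyte score Adipoq was -0.23 and Mki67 0.68, in males only Adipoq was -0.072, and with the mitochondrial share as a term Mlxipl was 0.016 and Pdk4 0.015. Mki67, at -0.24 in the main fit, was also 0.93 with a lymphocyte score, 0.31 in males only and 0.28 in BXD strains only. With 1 library a strain it was 0.12, and with strain as a random effect 0.027. On log2(TPM + 0.1) and log2(TPM + 1) it was 0.16 and 0.071. Scd1, at -0.13 in the main fit, was 0.45 in females only and 0.46 with smaller classes. It was 0.05 with Lep as a numeric term and 0.047 on both TPM scales. The cause was not tested. Of the other values of named genes under alternatives, 2794 kept their direction and side of the threshold, 69 lost significance and 4 gained it. The main classes hold 16 to 18 libraries in a sex, and single libraries were not left out in turn. Groups of the other-sex grouping hold 12 to 16. Without the lymphocyte-rich libraries the low leptin groups hold 3 females and 5 males, so a single library weighs more there. No paired analysis of the classes was made, since CXB6/ByJ and AXB19b/PgnJ were the only strains with a library in each class. Strain ties libraries of both sexes and was not a term of the main fits. It was taken as a random effect only in alternatives of the class comparison and of the grouping by the other sex.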

Other observations

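Several lists were not described above. Of 6 erythroid genes all 6 were higher with high leptin, with a median log2FC of 0.59, 1.11 in females and 0.13 in males, and none passed the test without the lymphocyte-rich libraries. Their summed level was 613 to 2087 CPM in high and 130 to 1112 CPM in low leptin females. Immediate early genes gave 6 higher and 4 lower of 16, with Atf3, a stress-induced factor, higher at 1.76 and Egr3 lower at -1.94, and Egr2 at -0.83 in females and 1.12 in males. Of 17 clock genes 5 were higher and 2 lower, with Per1 at 0.61 and Clock at 0.55. Hypoxia response genes gave 6 higher and 4 lower of 15, with Hif1a at 0.67 and P4ha2, a collagen prolyl hydroxylase, at 0.89, and Egln3, an oxygen sensor, at -1.14.

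Insulin signalling and glucose uptake genes gave 7 higher and 4 lower of 17. Grb14, an adaptor that inhibits the insulin receptor, was higher at 1.16, Irs1, a substrate of the receptor, was lower at -0.35, and Slc2a4, the insulin-responsive glucose transporter, at -0.18 did not pass the test. With the lymphocyte-rich libraries left out 1 was higher and 5 lower, Grb14 was at 0.55 (edgeR adjusted p = 0.11) and Slc2a4 was lower at -0.67 (adjusted p = 0.00038). Progenitor genes gave 6 higher and 3 lower of 15, Schwann cell genes 2 higher and 3 lower of 9, mast cell genes 1 higher of 8 and skeletal muscle genes 3 higher of 12. In females alone 5 of the 7 muscle genes tested were higher (median 3.14), and in males none of 10 passed the test (median -1.09). Without the lymphocyte-rich libraries 1 progenitor gene was higher and 3 Schwann cell genes were lower, no mast cell or muscle gene passed the test, and clock genes gave 2 lower, hypoxia genes 2 higher and 3 lower and immediate early genes 4 higher and 1 lower. Muscle markers summed to over 100 CPM in 6 high and 2 low leptin libraries.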
